A study of Homo sapiens with 43 samples.

Results

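The nuclear genome encodes most subunits of the machinery of oxidative phosphorylation. Complex I passes electrons from NADH into the respiratory chain of the inner mitochondrial membrane, complex II passes them from succinate, complex III hands them to cytochrome c, complex IV to oxygen, and complex V, the ATP synthase, uses the resulting proton gradient to make ATP. A small number of subunits of every complex except complex II come from the mitochondrial genome instead, so that both genomes supply parts of one enzyme, and erythroid cells also use the mitochondrial matrix for the first and last steps of heme synthesis. The genes described here are 58 nuclear subunit genes, chosen by name as known subunits and not by their measured values, out of 58347 gene entries in each deposited count table. They comprise 32 genes of complex I, 4 of complex II, 6 of complex III, 8 of complex IV (with NDUFA4, counted here as a complex IV subunit) and 8 of complex V.

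All samples were HEL cells, an established human erythroleukemia line, that carried by stable transfection a transgene of the splicing factor U2AF1, which reads the AG at the end of introns as part of the U2AF dimer. The transgene was wild type (WT) or held the substitution S34F or Q157R. In the RNA-seq, total RNA depleted of rRNA was read in 2 libraries of WT cells without induction, 2 of WT cells induced, 1 of S34F cells without induction, 2 of S34F cells induced, 1 of Q157R cells without induction and 2 of Q157R cells induced. Induced cells received doxycycline at 1 µg/ml for 48 h, and the uninduced cells carried the same transgenes. RNA bound by U2AF1, pulled down with an antibody against the FLAG tag after crosslinking (CLIP), was read in 17 libraries of fractionated CLIP (freCLIP) of induced WT, S34F and Q157R cells. A further 7 eCLIP libraries, which include repeat libraries of the same replicate, held RNA bound by U2AF1 or by its partner U2AF2 in induced WT cells. The labels name biological replicates but no separate cultures or clones, so the p-values below measure the spread between these libraries, which may be technical. The RNA came from whole cultures, in which fewer cells of one kind and less RNA per cell cannot be told apart.

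The 10 RNA libraries held between 22392303 and 40370092 reads assigned to genes, and each of the 58 members had between 92 and 33125 reads in every library. Of 11 erythroid markers 9 were above 1 CPM (reads relative to the TMM-scaled size of the library) in every library, as were 5 of 6 megakaryocytic markers, 1 of 4 monocyte and granulocyte markers, 0 of 5 lymphoid and 0 of 5 stromal and epithelial markers, with MS4A1 and KRT19 at 0 reads in all 10. The induced libraries held U2AF1 at 19.1 and 11 CPM for WT, 18 and 19.4 for S34F and 21.5 and 15.2 for Q157R. The uninduced ones held it at 13.4 and 12.6 for WT, 21.2 for S34F and 22.1 for Q157R, a range that overlaps the induced one. The U2AF1 counts therefore do not check the labels of induction. Reads that map to several places are left out of the counts, so these values may not hold all reads of U2AF1. Reads outside annotated features made up 33.7% and 33.5% of all reads in the induced S34F libraries, against 19.0% to 27.0% in the other 8. Same-numbered libraries of different groups deviated together from their group means, so each comparison was also fitted with the replicate number as a block. A gene is called where its Benjamini-Hochberg adjusted p over the 21300 genes tested was under 0.05 in edgeR's quasi-likelihood test. Log2 fold changes and their standard errors are those of the fit without the block unless said otherwise, also for genes called only with it.

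The members covered a wide range of levels. Per kilobase of exon, averaged over the 10 libraries, the highest was ATP5F1B, the catalytic beta subunit of the ATP synthase, at 452 CPM per kb, followed by ATP5F1C, its central stalk subunit, at 152 and CYC1, cytochrome c1 of complex III, at 140. The most abundant member of complex IV on that scale was COX5B at 126, of complex I NDUFS5 at 117 and of complex II SDHB, the iron-sulfur subunit, at 61.5. The lowest on that scale was the complex I subunit NDUFA9 at 2.77. Exon length here joins the exons of all protein-coding transcripts of a gene, 8642 bases for NDUFA9. In mean CPM NDUFA9 stood at 23.9, and the lowest member was NDUFA13 at 5.39. Reads that map to several places or lie in 2 overlapping genes were left out of the deposited counts, and 35 members have at least 1 pseudogene named after them (COX6C has 17), so reads shared with a copy are not in these levels. For 6 members at least 20% of the exon bases are shared with another gene on the same strand: NDUFA13, NDUFB8, NDUFV2, COX6A1, COX8A and ATP5PO. Their levels per kilobase may be too low, since reads over the shared bases may be missing from the counts. Another 7 share as much with a gene on the opposite strand: NDUFA1, NDUFA2, NDUFB2, NDUFB11, NDUFS7, UQCRQ and ATP5PF. The strand setting of the counting is not given in the sources used here, so reads of such antisense partners cannot be told apart from the member's own.

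Promoters of nuclear subunit genes are known for sites of NRF1, of the ETS factor GABP and of YY1. The part of such sites in the differences below was not tested. RefSeq promoters (build GRCh38.p14, 250 bases before to 50 after the start) were at hand for 47 of the 58 members. On either strand, the NRF1 letters GCGCATGCG were in 8 of the 47 (17%) against 1.92% of the 35116 promoters in the table. The ETS letters CCGGAAGT were in 7 (14.9%, against 4.14% of all), and the YY1 letters AAGATGGCG in 6 (12.8%, against 1.75%). At least 1 of the 3 stood in 18 (38.3%, against 7.33%). The 150 bases from 100 before the start are printed with the motif in capitals. They are given for the 2 members per motif with the lowest adjusted p in the S34F comparison. NDUFV2, which went the other way on induction and whose window holds none of the 3, is printed as well. In induced S34F against WT, NDUFB10 (log2 fold change -0.92) and NDUFS8 (-0.76) also hold no match, while NDUFA13 (0.62) holds an ETS match. A match is a description of the letters and not a bound site.
UQCRQ, chr5:132866542-132866691, plus strand, ETS: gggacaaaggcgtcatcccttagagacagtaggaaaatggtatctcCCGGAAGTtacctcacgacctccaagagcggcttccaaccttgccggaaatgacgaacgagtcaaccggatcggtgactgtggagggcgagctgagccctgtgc
COX5B, chr2:97645962-97646111, plus strand, ETS: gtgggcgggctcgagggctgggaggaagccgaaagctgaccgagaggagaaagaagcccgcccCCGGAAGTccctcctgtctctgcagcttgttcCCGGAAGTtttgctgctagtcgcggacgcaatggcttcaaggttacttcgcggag
NDUFS6, chr5:1801307-1801456, plus strand, NRF1: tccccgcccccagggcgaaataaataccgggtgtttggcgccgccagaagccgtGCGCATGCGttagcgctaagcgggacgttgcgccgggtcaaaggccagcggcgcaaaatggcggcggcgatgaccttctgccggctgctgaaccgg
NDUFA8, chr9:122159730-122159879, minus strand, NRF1 on both strands: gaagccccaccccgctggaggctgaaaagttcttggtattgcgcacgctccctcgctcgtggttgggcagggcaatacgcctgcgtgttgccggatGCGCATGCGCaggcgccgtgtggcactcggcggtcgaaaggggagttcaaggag
NDUFA6, chr22:42090723-42090872, minus strand, YY1: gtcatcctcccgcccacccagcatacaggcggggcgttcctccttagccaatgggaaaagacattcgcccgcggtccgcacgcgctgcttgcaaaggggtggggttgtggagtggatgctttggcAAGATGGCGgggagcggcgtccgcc
UQCRC1, chr3:48609597-48609746, minus strand, YY1: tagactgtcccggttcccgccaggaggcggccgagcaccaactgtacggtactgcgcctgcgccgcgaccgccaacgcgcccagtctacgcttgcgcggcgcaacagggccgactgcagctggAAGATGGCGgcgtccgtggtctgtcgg
NDUFV2, chr18:9102599-9102748, plus strand, no match: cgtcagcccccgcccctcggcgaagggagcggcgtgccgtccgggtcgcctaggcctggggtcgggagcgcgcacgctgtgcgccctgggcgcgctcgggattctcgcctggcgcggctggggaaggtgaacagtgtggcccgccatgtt

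In induced S34F cells the summed mRNA of the members of complexes I, III, IV and V was lower than in induced WT cells, while that of complex II overlapped (261 and 234 CPM against 315 and 253). The summed level of the 58 members was 4165 and 3770 CPM in the 2 S34F libraries against 5514 and 5302 in the 2 WT libraries, and the groups did not overlap. Of the 58 members 53 were lower and 5 higher, with a median log2 fold change of -0.44, against 0.00 over all genes tested and -0.16 over protein-coding genes. In the fit without a block 0 members were called, where 1.67% of all genes were, and 21 had an unadjusted p under 0.05 (23.3% of all genes). The lowest adjusted p was 0.0516. With the replicate block 28 members were called lower and 0 higher, where 22.4% of all genes were called and 12.9% called lower, and DESeq2 called 10 lower (7.25% of all genes were called). The number of calls with the block fell with each library left out, to 3 without the second WT library, 11 without the first, 8 without the first S34F library and 13 without the second. Within replicate 1 the members' median log2 ratio of S34F to WT was -0.42, and within replicate 2 it was -0.47. With 1 library left out the median ran from -0.59 (without the first S34F library) to -0.29 (without the second).

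**Figure D1:**
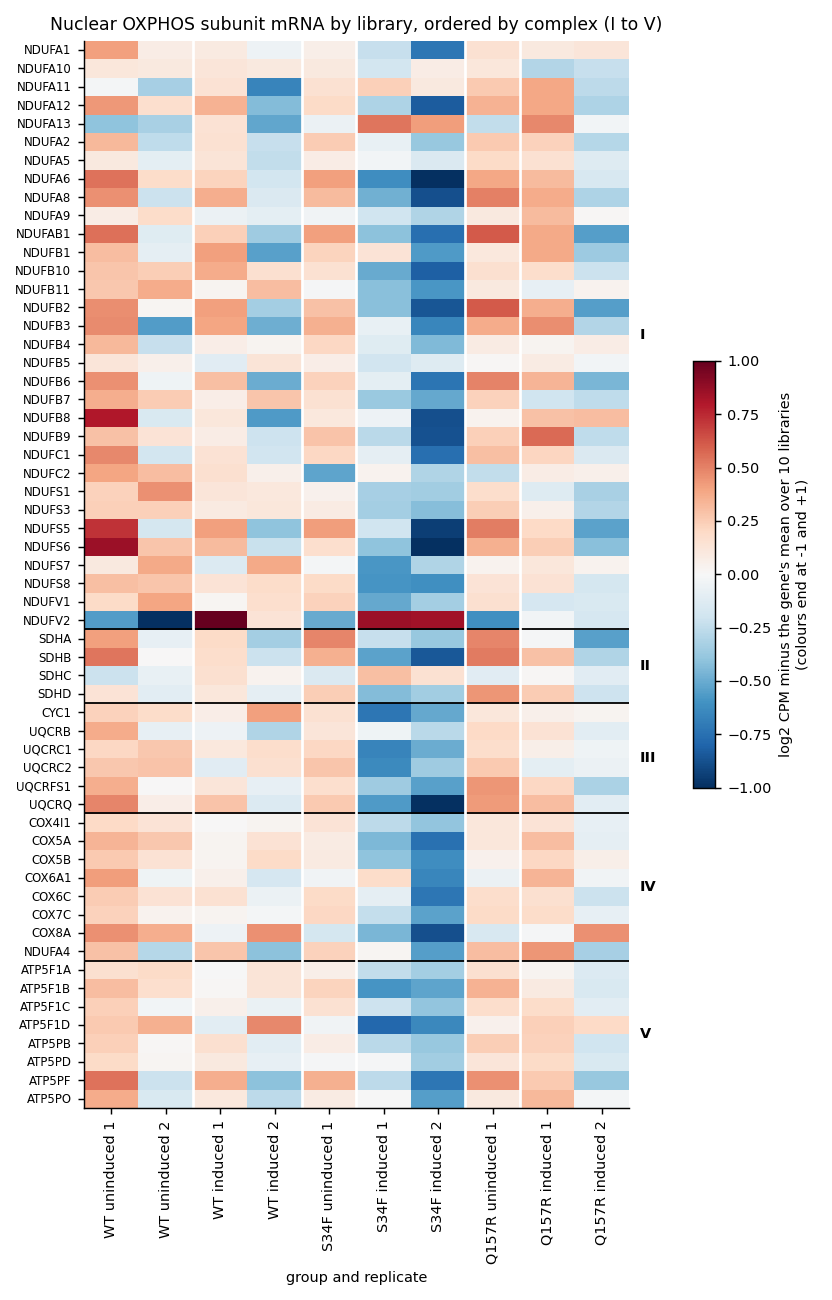
Level of each of the 58 members in each of the 10 RNA libraries, as log2 CPM minus the gene's mean over the libraries (colour), with members in rows by complex and libraries in columns by group. Both induced S34F columns are blue over most rows, and NDUFV2 is blue in the 4 uninduced columns and deep red in the first induced WT column and in both induced S34F columns.

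Both S34F libraries lay below both WT libraries for 38 members, where 27.3% of all genes and 36.6% of protein-coding genes did, and above both for 1, where 28.9% and 21.2% did. Both also lay below all the other 8 libraries for 31 members, where 16.3% of all genes and 23.5% of protein-coding genes did. The share of reads outside features (33.7% and 33.5% in S34F, 22.7% in each WT library) moved with this result, and its part in it was not tested. Marker levels differed between the same libraries. The summed megakaryocytic markers were at 979 and 1381 CPM in S34F against 1616 and 2510 in WT, with 4 of 6 lower without overlap and 0 higher, among them the integrin ITGB3 at 127 and 131 against 253 and 245. The summed erythroid markers were at 1374 and 1140 against 1754 and 1522, with 2 of 11 lower and 3 higher without overlap. Monocyte and granulocyte markers summed to 50.5 and 51.3 CPM against 34 and 38.9, nearly all of it LYZ, with MPO at 0 in 1 of the S34F libraries, and 2 of 4 were higher without overlap. Lymphoid markers summed to 1.38 and 1.68 CPM against 1.1 and 2.32, with 0 of 5 apart, and stromal and epithelial ones to 1.22 and 0.986 against 0.224 and 0.405, with 1 of 5 higher. Their part in the result was not tested.

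**Figure D2:**
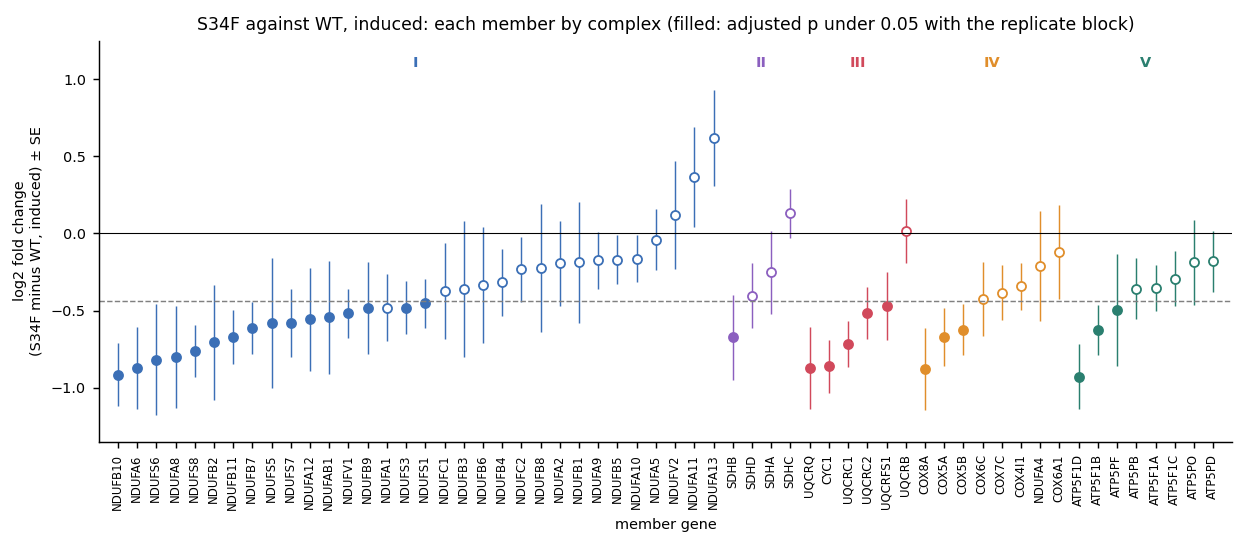
Log2 fold change of each member in induced S34F against induced WT (points, with 1 SE), grouped by complex, with the dashed line at the members' median of -0.44. Filled points, 28 of 58, had an adjusted p under 0.05 with the replicate block, and 53 of the 58 points lie below 0.

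Complex III had the lowest median of the 5, -0.62. Its summed level was 567 and 561 CPM in S34F against 787 and 804 in WT, and 5 of its 6 members were called lower with the block. CYC1, the cytochrome c1 that receives electrons within the complex (chr8:144095027-144097525, GRCh38), had 103 and 119 CPM in S34F against 178 and 225 in WT. Both S34F values lay below both WT values, the log2 fold change was -0.86 ± 0.17 (SE, n = 2 and 2), and the adjusted p by edgeR was 0.0516 without and 0.00223 with the block (0.000839 to 0.367 over all settings). UQCRQ, a small subunit near cytochrome b, had 33.6 and 24.2 CPM against 60.6 and 45.1, again without overlap, a log2 fold change of -0.87 ± 0.26. Part of its exon sequence overlaps a gene on the opposite strand. UQCRC1, a core subunit, had 71.1 and 80.0 CPM against 121 and 128, a log2 fold change of -0.72 ± 0.15. The other core subunit, UQCRC2, and the Rieske iron-sulfur protein UQCRFS1 were also called, at -0.52 and -0.47. UQCRB, which binds ubiquinone, was the exception, with 192 and 163 CPM in S34F against 190 and 160 in WT, which overlap, and a log2 fold change of 0.02 ± 0.21.

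In complex I the summed level was 1338 and 1162 CPM in S34F against 1783 and 1581 in WT. Of its 32 members 29 were lower and 16 were called lower with the block. NDUFB10, an accessory subunit of the membrane arm, had 30.5 and 24.6 CPM against 55.8 and 48.2. The 2 groups did not overlap, and the log2 fold change was -0.92 ± 0.20. NDUFA6, an accessory subunit on the matrix side, had 20.7 and 14.9 CPM against 37.1 and 28.1, a log2 fold change of -0.88 ± 0.27. NDUFS8, a core subunit that carries iron-sulfur clusters on the path from NADH to ubiquinone, had 29.7 and 29.2 CPM against 49.1 and 50.7, a log2 fold change of -0.76 ± 0.17 and an adjusted p by edgeR of 0.0629 without and 0.00546 with the block (0.0025 to 0.377 over all settings). The values of NDUFS6 were 19.9 and 11.6 against 32.8 and 22.6 CPM, and those of NDUFA8 16.1 and 12.3 against 29 and 20.4. In both genes the S34F values were the lower ones without overlap, and the log2 fold changes were -0.82 ± 0.36 and -0.80 ± 0.33. NDUFS5, the most abundant complex I member per kb, had 52.7 and 31.6 CPM against 80.3 and 45.8. The groups overlap, with replicate 2 the lower one in both, and it was called with the block but neither without it nor by DESeq2 (log2 fold change -0.58 ± 0.42 without it). The 6 core subunits among the members belong to the arm that carries electrons from NADH to ubiquinone, and 5 of them were called lower with the block: NDUFS1, NDUFS3, NDUFS7, NDUFS8 and NDUFV1. The other called members, all accessory, were NDUFA12, NDUFAB1, NDUFB2, NDUFB7, NDUFB9 and NDUFB11.

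Not every complex I gene followed. NDUFA13, also known as GRIM-19, had 7.6 and 7.0 CPM in S34F against 5.8 and 3.6 in WT, the one member with both S34F values above both WT values. Its log2 fold change was 0.62 ± 0.31 and its adjusted p by edgeR 0.271 without and 0.0822 with the block (0.0456 to 0.674 over all settings). It shares 32.9% of its exon bases with genes on the same strand, and its partner YJEFN3 was at 0.73 ± 0.30, with an adjusted p by edgeR of 0.195 without and 0.041 with the block (0.0139 to 0.548 over all settings). The part of that gene in the reads of NDUFA13 was not tested. NDUFA11 was at 0.37 ± 0.32 and NDUFV2, a core iron-sulfur subunit of the NADH-oxidising module, at 0.12 ± 0.35, neither called. The others that were not called ran from -0.48 for NDUFA1 to -0.04 for NDUFA5: NDUFA2, NDUFA9, NDUFA10, NDUFB1, NDUFB3, NDUFB4, NDUFB5, NDUFB6, NDUFB8, NDUFC1 and NDUFC2 lay between them.

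Complex V followed in 3 of 8 members, with a summed level of 1380 and 1316 CPM against 1862 and 1907. ATP5F1D, the delta subunit of the rotating central stalk, had the lowest log2 fold change of all members, -0.93 ± 0.21, with 41.3 and 45.5 CPM against 66.2 and 99.1. ATP5F1B, the most abundant member, had 541 and 563 CPM against 817 and 889, a log2 fold change of -0.63 ± 0.16. Neither gene's groups overlapped, and the adjusted p by edgeR with the block was 0.00351 for ATP5F1D and 0.00946 for ATP5F1B (0.00143 to 0.380 and 0.00633 to 0.410 over all settings). ATP5PF was the third called with the block, at -0.50 ± 0.36 in the fit without it. The other 5, ATP5F1A, ATP5F1C, ATP5PB, ATP5PD and ATP5PO, were lower without a call.

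In complex IV 8 of 8 members were lower and 3 were called with the block: COX5A, COX5B and COX8A. COX5A, a subunit on the matrix side, had 106 and 86.3 CPM against 147 and 159, a log2 fold change of -0.67 ± 0.19. COX5B had 66.7 and 57.2 CPM against 90.2 and 101, a log2 fold change of -0.62 ± 0.17. COX8A was at -0.88 ± 0.26, with 14.5 and 10.8 CPM against 19.2 and 27.4, and 34.5% of its exon bases are shared with another gene on its strand. In all 3 genes the groups were apart. COX4I1, COX6A1, COX6C, COX7C and NDUFA4 lay between -0.42 and -0.12 without a call. In complex II, SDHB had 47.0 and 37.8 CPM against 76.8 and 58.4, without overlap, and a log2 fold change of -0.67 ± 0.28, and was the one member of 4 called with the block. SDHA, the flavoprotein, and SDHD, a membrane anchor, were at -0.25 ± 0.27 and -0.40 ± 0.21. SDHC, the other anchor, was at 0.13 ± 0.16.

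**Figure D3:**
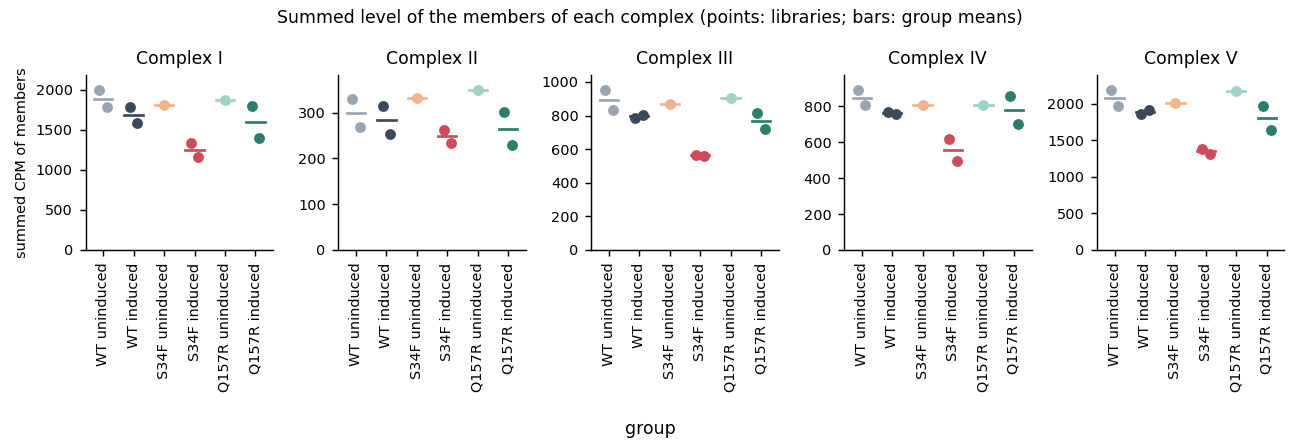
Summed CPM of the members of each complex in every RNA library (points), with group means as bars, on axes that start at 0. Both induced S34F points are the lowest of their panel for complexes I, III, IV and V, while for complex II the second induced Q157R library, at 229 CPM, lies below both S34F libraries.

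Of the 23 promoters at hand for members called with the block, 11 held at least 1 of the 3 motifs, and of the 24 for members not called 7 did. The YY1 letters were in 5 of the former and 1 of the latter, the NRF1 letters in 4 and 4, and the ETS letters in 4 and 3. Across the 58 members the log2 fold change ran with annotated exon length, members with less exon sequence being lower. Spearman's rho was 0.39 across genes, which share the same 4 libraries, against 0.18 over 13602 protein-coding genes. That length joins the exons of all protein-coding transcripts of a gene and is not the length of a single mRNA. The members' median level was lower in the second library than in the first of every group with 2, by log2 differences of -0.21 in uninduced WT, -0.21 in induced WT, -0.26 in induced S34F and -0.34 in induced Q157R, while protein-coding genes as a whole moved by -0.04 to 0.02. Spearman's rho of that difference with exon length across the members was 0.40 in uninduced WT and 0.51 in induced S34F, but 0.15 in both induced WT and induced Q157R. The part of length in the S34F result was not tested.

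Genes that work with the members were counted the same way. Of all genes tested 1.67% were called without the block, and with it 22.4% were called and 12.9% called lower. Of 13602 protein-coding genes 8334 were lower, and with the block 2626 were called lower and 1080 higher. Of 20 nuclear subunits that are not among the 58, 19 were lower in S34F than in WT (median -0.41), and with the block 6 were called lower and 1 higher. The one called higher was the complex I subunit NDUFA7, at 1.03 ± 0.37. Of 49 genes listed as assembly factors in a broad sense, 38 were lower (median -0.29), and with the block 12 were called lower and 1 higher. SDHAF3, which matures the iron-sulfur subunit of complex II, was called without the block at -1.08 ± 0.20 (adjusted p by edgeR 0.0469, 0.00126 to 0.359 over all settings). Of 80 mitochondrial ribosomal proteins 73 were lower (median -0.47), with 2 called without and 36 with the block. The 2 were MRPL4 at -1.13 ± 0.19 and MRPL39 at -0.93 ± 0.18. Of 16 enzymes of the TCA cycle and of the pyruvate dehydrogenase complex that feeds it 15 were lower (median -0.47), 1 was called without and 7 with the block. The first was MDH2, the mitochondrial malate dehydrogenase, at -0.99 ± 0.16. Of 12 regulators of mitochondrial biogenesis 9 were lower (median -0.22), 0 were called without and 2 lower with the block, ESRRA at -0.61 ± 0.22 and PPARGC1B at -0.92 ± 0.39. With both directions counted, assembly factors and regulators were not called more often with the block than protein-coding genes.

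All 13 mRNAs of the mitochondrial genome had a higher estimate in S34F than in WT, with a median log2 fold change of 0.37, but 0 were called with or without the block or by DESeq2, and 0 had an unadjusted p under 0.05 in edgeR's test. Their summed level was 24540 and 20182 CPM in S34F against 22673 and 15009 in WT, which overlap. The mean of the S34F libraries was above the second induced WT library for 13 of 13, but below the first for 9 of 13. Paired by replicate number, the summed level was higher in S34F in both pairs, and the median with the block was also 0.37. The direction therefore depended on how the libraries were set side by side. The most different was MT-CYB, cytochrome b of complex III, with 1556 and 1162 CPM against 1229 and 620 and a log2 fold change of 0.56 ± 0.31. The difference between the 2 sets of genes was not itself tested.

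**Figure D4:**
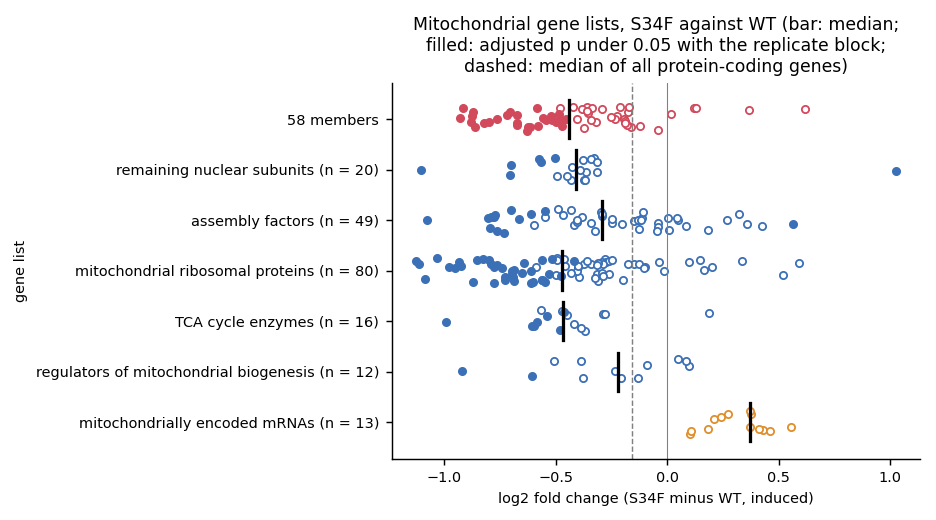
Log2 fold change in induced S34F against induced WT of each gene (points) in the 58 members and in 6 other mitochondrial lists, with medians as bars and the median of all protein-coding genes dashed. The medians of the members and of 4 other nuclear lists lie from -0.47 to -0.29, that of the regulators is -0.22, and all 13 mitochondrially encoded mRNAs lie above 0 without a call.

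Against induced Q157R cells the members were again lower in S34F. This comparison shares the S34F libraries with the one above, so the 2 are not independent. Of the 58 members 53 were lower, with a median of -0.41 (0.00 over all genes, -0.12 over protein-coding genes). With 1 library left out the median ran from -0.60 (without the second Q157R library) to -0.19 (without the first). The summed level was 5740 and 4692 CPM in Q157R. In the fit without a block 0 were called (0.559% of all genes). DESeq2 called 7 lower (5.9%), and 21 members were under an unadjusted p of 0.05 (21.5%). With the block 20 were called lower and 1 higher (20% of all genes called, 11.5% lower). Leaving out a library gave 3 calls without the first S34F library, 7 without the second, 5 without the first Q157R library and 19 without the second. Both S34F libraries lay below both Q157R libraries for 35 members (25.5% of all genes). By complex, 9 of 32 members of complex I were called lower, 1 of 4 of complex II, 4 of 6 of complex III, 4 of 8 of complex IV and 2 of 8 of complex V.

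Members from each of the 5 complexes were called in that comparison. NDUFA6 was lowest, at 39.6 and 28.4 CPM in Q157R and a log2 fold change of -0.94 ± 0.27. ATP5F1D followed at -0.93 ± 0.21, then UQCRQ at -0.90 ± 0.26 and COX8A at -0.89 ± 0.26, all called with the block. CYC1 (176 and 173 CPM in Q157R) was at -0.65 ± 0.17, COX5A at -0.71 ± 0.19, COX5B at -0.64 ± 0.17, SDHB at -0.71 ± 0.28, NDUFB9 at -0.75 ± 0.30 and ATP5F1B at -0.53 ± 0.16, and these too were called with the block. NDUFS5 was at -0.40 ± 0.42 and was not. The one member called higher was NDUFV2, with 13.4 and 13.2 CPM in S34F against 7.3 and 6.6 in Q157R, without overlap, a log2 fold change of 0.94 ± 0.35 and an adjusted p by edgeR of 0.182 without and 0.0227 with the block (0.0147 to 0.507 over all settings). SDHC at 0.28 ± 0.16, NDUFA13 at 0.23 ± 0.31 and NDUFA10 at 0.21 ± 0.15 were not called.

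Between induced Q157R and induced WT cells the members lay on both sides of 0. The estimate was lower for 26 members and higher for 32, with a median of 0.01 against -0.01 over all genes. With 1 library left out the median ran from -0.20 (without the first Q157R library) to 0.19 (without the second). None was called by edgeR without the block (0 of all genes, 0%), with the block (0.0188%) or by DESeq2 (0.0141%), and 3 had an unadjusted p under 0.05 (3.36% of all genes). The libraries of the 2 groups were apart for 9 members that were lower and 3 that were higher, where 26.4% of all genes were apart in either direction. Estimates ran from -0.82 ± 0.35 for NDUFV2 (7.3 and 6.6 CPM against 16.3 and 8.1 in WT) to 0.48 ± 0.41 for NDUFB8 (8.4 and 8.4 against 7.4 and 4.6). The standard errors of single members ran from 0.15 to 0.44, and a fit without calls does not show that the 2 groups are alike.

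Before induction the lines could be compared over 1 S34F or Q157R library and 2 WT libraries, with the spread borrowed from the other groups. The summed level was 6337 and 5668 CPM in WT, 5832 in S34F and 6104 in Q157R. Both mutant libraries are replicate 1 and lay below the WT library of that number and above that of replicate 2. The members' median log2 fold change was -0.02 for S34F and 0.01 for Q157R, and with the replicate block -0.16 and -0.065. Leaving out 1 WT library moved it from -0.13 to 0.06 for S34F and from -0.067 to 0.13 for Q157R, so the direction was not settled in either. Nothing was called among members or among all genes (0%) in either comparison by edgeR with or without the block or by DESeq2. At an unadjusted p under 0.05 stood 1 member for S34F (0.859% of all genes) and 0 for Q157R (1.1%). NDUFC2 was lowest in both comparisons, at 7.5 CPM in S34F and 9.1 in Q157R against 14.2 and 13.4 in WT, with log2 fold changes of -0.88 ± 0.27 and -0.59 ± 0.27, and NDUFA11 highest, at 0.32 ± 0.39 and 0.43 ± 0.39. NDUFC2 shares 16.25% of its exon bases with the readthrough gene NDUFC2-KCTD14, which had 0 reads in every library.

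In each line most members had a lower estimate after induction with doxycycline. Every induced library had the drug and no uninduced one did, so drug and transgene cannot be told apart in these comparisons. In WT cells 52 of 58 were lower after induction, by a median of -0.15 (0.01 over all genes), which ran from -0.24 (without the second uninduced library) to -0.025 (without the first) with 1 library left out. Neither edgeR without the block (0% of all genes) nor DESeq2 (0.0845%) called any, and 1 had an unadjusted p under 0.05 (6.4% of all genes). With the block 1 was called (0.418%), and 0 when the scaling used protein-coding nuclear genes alone or when either induced library or the second uninduced one was left out. It was NDUFV2, which stood higher after induction, from 5.0 and 3.5 to 16.3 and 8.1 CPM, with a log2 fold change of 1.5 ± 0.26 and an adjusted p by edgeR of 0.0383 with the block (0.00618 to 0.988 over all settings), and 1.54 ± 0.36 and 0.693 without it. In Q157R cells 44 of 58 were lower, by a median of -0.17 (0.05 over all genes). The median was -0.057 with the block, -0.33 without the first induced library and -0.032 without the second. The uninduced Q157R library is of replicate 1. Within that replicate 33 of 58 members (56.9%) were lower, by a median log2 ratio of -0.03, beside 52.4% of protein-coding genes. The 44 of 58 therefore also holds the difference between replicates. Among these members 0 were called by edgeR without the block (0%), with it (0.263%) or by DESeq2 (0.338%), while 1 had an unadjusted p under 0.05 (8.86%). That was SDHA, at the low end with -0.74 ± 0.32, and NDUFV2 was at the high end with 0.52 ± 0.44.

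The other members of the WT comparison were not called. The lowest estimates were NDUFB8 at -0.59 ± 0.42, NDUFS6 at -0.52 ± 0.36, NDUFA6 at -0.34 ± 0.26 and UQCRB at -0.33 ± 0.21. SDHC at 0.24 ± 0.16, NDUFA13 at 0.22 ± 0.32 and CYC1 at 0.04 ± 0.17 were highest beside NDUFV2. ATP5F1B was at -0.17 ± 0.16, COX5B at -0.09 ± 0.16, SDHB at -0.30 ± 0.28 and NDUFS5 at -0.28 ± 0.42. The directions of CYC1, NDUFA13 and NDUFS5 turned when 1 library was left out, and that of COX5B did so in the fit with the block.

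In S34F cells 53 of 58 members were lower after induction, by a median of -0.58 (0.06 over all genes, -0.13 over protein-coding genes). In the fit without a block 0 were called (1.96% of all genes) and 22 had an unadjusted p under 0.05 (25.2%), while DESeq2 called 5 lower and 1 higher (8% of all genes). With the block 18 were called lower and 1 higher (19.2% of all genes called, 11% lower), and the median was -0.44. The median was -0.68 without the first induced library and -0.41 without the second, in the fit with no block. Without the first induced S34F library 2 were called with the block, and without the second 13. The uninduced side of this comparison is 1 library. The induced libraries are those with 33.7% and 33.5% of reads outside features, against 20.3% in the uninduced one, and the part of that share was not tested. By complex, 8 members of complex I, 2 of complex II, 4 of complex III, 2 of complex IV and 2 of complex V were called lower. NDUFA6 went from 42.3 to 20.7 and 14.9 CPM (log2 fold change -1.25 ± 0.31), UQCRQ from 59.6 to 33.6 and 24.2 (-1.05 ± 0.31) and SDHB from 87.0 to 47.0 and 37.8 (-1.04 ± 0.33). These 3 genes lay below the uninduced level in both induced libraries. NDUFA8 was at -0.99 ± 0.39, NDUFB10 at -0.80 ± 0.24, NDUFS8 at -0.79 ± 0.20, UQCRC1 and ATP5F1B at -0.78 ± 0.18 and -0.78 ± 0.19, CYC1 and UQCRC2 both at -0.77 ± 0.20, and NDUFV1, the subunit that oxidises NADH, at -0.66 ± 0.19. The member called higher was again NDUFV2, from 5.2 to 13.4 and 13.2 CPM, with a log2 fold change of 1.35 ± 0.46 and an adjusted p by edgeR of 0.127 without and 0.01 with the block (0.0058 to 0.317 over all settings).

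**Figure D5:**
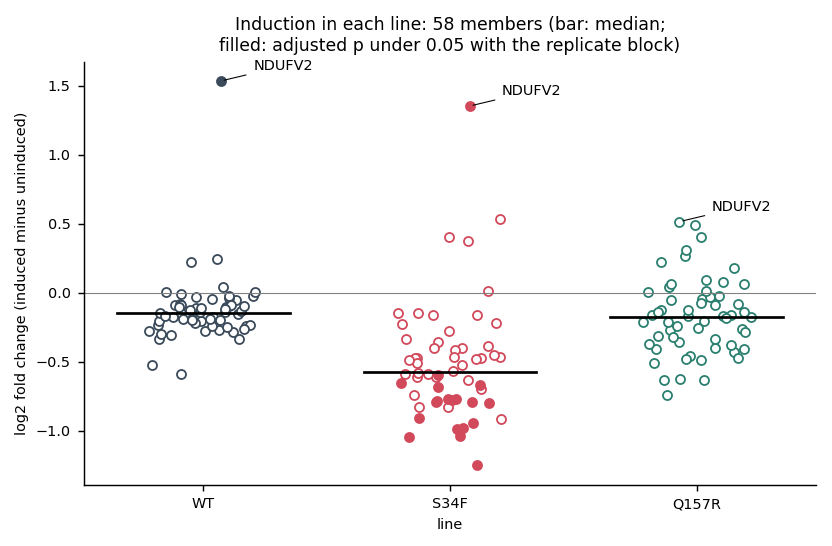
Log2 fold change on induction of each of the 58 members (points) in the WT, S34F and Q157R lines, with the median as a bar and filled points for members called with the replicate block. The medians are -0.15, -0.58 and -0.17, and NDUFV2 is the highest point of each line.

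Whether induction acted differently in the mutant lines was tested as the difference of the 2 inductions. Against WT, the S34F difference was below 0 for 51 of 58 members, with a median of -0.41, or -0.28 with the block, and from -0.54 to -0.26 with 1 library left out. No member was called by edgeR without the block (0% of all genes), with it (0.704%) or by DESeq2 (0.0423%), and 5 had an unadjusted p under 0.05 (8.19%). Estimates ran from -0.96 ± 0.51 for NDUFA8 to 0.65 ± 0.34 for NDUFC2, and NDUFV2 was at -0.18 ± 0.56. For Q157R the median was -0.08 without and 0.08 with the block, and ran from -0.24 to 0.12 with 1 library left out, so its direction turned, again with 0 called by edgeR without the block (0%), with it (0.00469%) or by DESeq2 (0%), and 0 at an unadjusted p under 0.05 (1.23% of all genes). It ran from -1.02 ± 0.56 for NDUFV2 to 0.85 ± 0.66 for NDUFB8. A difference between the lines in the induction of single members was therefore not detectable with these libraries.

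Averaged over the 3 lines, induction went with 54 members lower and 4 higher, by a median of -0.28 (0.05 over all genes, -0.04 over protein-coding genes). In the fit without a block 3 members were called, where 8.9% of all genes were, and 23 had an unadjusted p under 0.05 (30.9%). With the block 18 were called lower and 1 higher (24.4% of all genes called, 12.7% lower), and DESeq2 called 8 lower and 1 higher (14.7%). The count without a block was 0 when either uninduced WT library, either induced S34F library or the second induced Q157R library was left out, 1 without the second induced WT library and 7 without the first induced Q157R library. It was 1 with scaling on protein-coding nuclear genes. With the block it was 5 without the first induced WT library and 7 without the first induced S34F library. These 3 were the members whose 6 induced libraries were all on one side of the 4 uninduced ones, 2 below (5.73% of all genes) and 1 above (4.93%).

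NDUFV2 rose, with a log2 fold change of 1.14 ± 0.25 and an adjusted p by edgeR of 0.0351 (0.000126 to 0.105 over all settings). Its 4 uninduced libraries stood between 3.5 and 5.2 CPM and its 6 induced libraries between 6.6 and 16.3. The gene (chr18:9102630-9134345 on the plus strand, GRCh38) had a low counted level for a core subunit, ranking 54 of 58 per kilobase. Of its exon bases 41.1% are shared with the overlapping transcript AP005263.1, which had 0 or 1 read in every library. Reads that could not be assigned to one of 2 genes are not in the counts, while the rank divides by all exon bases. The part of this in the low rank was not tested. The other 2 fell. UQCRC2 had 155 to 158 CPM in the uninduced libraries and 83.2 to 144 in the induced ones, a log2 fold change of -0.45 ± 0.11 and an adjusted p by edgeR of 0.0455 (0.00217 to 0.125 over all settings). ATP5F1B had 912 to 1032 CPM uninduced and 541 to 889 induced, a log2 fold change of -0.44 ± 0.11 and an adjusted p by edgeR of 0.0436 (0.00912 to 0.124 over all settings). In both genes the 2 lowest values were the induced S34F libraries.

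Further members called with the block over the 3 lines, but not without it, included NDUFA6 at -0.63 ± 0.17, SDHB at -0.61 ± 0.18, the flavoprotein SDHA at -0.59 ± 0.18, NDUFV1 at -0.39 ± 0.11, UQCRQ at -0.52 ± 0.17 and UQCRC1 at -0.35 ± 0.10, NDUFS6 and NDUFS5 at -0.61 ± 0.23 and -0.62 ± 0.28, and NDUFAB1, the acyl carrier protein that is also a complex I subunit, at -0.63 ± 0.24. Of these DESeq2 also called NDUFA6, SDHB, SDHA, NDUFV1 and UQCRQ. CYC1 was called with the block at -0.27 ± 0.11, COX5B at -0.20 ± 0.11 was not, and 0 of 8 members of complex IV were called. NDUFA13, SDHC and NDUFC2 were the members above 0 beside NDUFV2, at 0.42 ± 0.21, 0.23 ± 0.11 and 0.16 ± 0.14. In the same comparison 7 of 80 mitochondrial ribosomal proteins were called lower without the block, among them MRPL39 at -0.85 ± 0.11 and MRPL4 at -0.66 ± 0.12. So were 3 of the 49 genes listed as assembly factors in a broad sense (NDUFAF3 at -0.81 ± 0.11, LRPPRC at -0.58 ± 0.10 and ATPAF1 at -0.50 ± 0.10). The same held for 3 of 16 TCA cycle and pyruvate dehydrogenase enzymes (PDHA1 at -0.54 ± 0.11, MDH2 at -0.43 ± 0.10 and DLAT at -0.64 ± 0.15). Of 20 nuclear subunits outside the 58, 1 was called lower, ATP5MC1, a c-ring subunit of the ATP synthase, at -0.91 ± 0.17. Among all genes 992 of 21300 were called lower, and among protein-coding genes 951 of 13602. The shares for the ribosomal proteins, the assembly factors and these subunits were near that of protein-coding genes. The 13 mitochondrially encoded mRNAs had a median of 0.02 with 0 called.

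The CLIP counts covered these genes thinly. Of all reads in a CLIP library 0.856% to 1.91% were assigned to genes, and 28.1% to 64.7% lay outside annotated features. Binding of U2AF1 or U2AF2 outside those features is therefore not in these counts. In freCLIP, complexes of U2AF1 and RNA were cut from the membrane as a light fraction (37 to 65 kD) and a heavy fraction (65 to 110 kD). The members took 0.120% to 0.233% of the gene counts in a freCLIP library and 0.180% to 0.227% in an eCLIP library, against 0.426% to 0.594% in RNA-seq, and that came to between 46 and 2069 counts per CLIP library. NDUFB9, an accessory subunit of complex I, held the most, 3611 counts over the 17 freCLIP libraries, followed by ATP5PB, a stator subunit of the ATP synthase, with 1051 and NDUFB10 with 728. These counts are not scaled by the length of the gene. Only 13 of the 58 members passed the filter on low counts, and 12 had no count in any freCLIP library.

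Among those 13, S34F against WT gave 0 calls by edgeR in the light fraction (0.337% of all 6833 genes tested), where DESeq2 called 1 (1.33%) and 2 were under an unadjusted p of 0.05 (14.2%). The DESeq2 call was NDUFA1, with 0 counts in each of the 3 S34F libraries against 20, 12 and 3 in WT, and an adjusted p of 0.0942 by edgeR, 0.198 with the replicate block and 0.0331 by DESeq2. Of its exon bases 44.5% are shared with RNF113A on the opposite strand. NDUFS7 went the other way, with 30, 10 and 71 counts in S34F against 10, 11 and 0 in WT, which overlap, and an adjusted p by edgeR of 0.181. In the heavy fraction 0 were called by edgeR (0.132%) or DESeq2 (0.527%), and 0 were under an unadjusted p of 0.05 (4.07%). DESeq2 gave an adjusted p for NDUFB9, NDUFB10, NDUFS7 and ATP5PB alone in that fraction. CYC1 was at 0.31 ± 1.27 in the light and -0.77 ± 1.11 in the heavy fraction on the log2 scale. At this depth, and without the reads outside annotated features, a difference in its binding of the size seen in its mRNA was not detectable.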

How the data were processed

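RNA-seq, eCLIP and freCLIP values are raw counts of reads per gene, as deposited. Per the submitters' processing notes, which give no role or order, the authors used cutadapt, HISAT2, STAR 2.5.3a and 2.7.0f, SAMtools, HTSeq, edgeR and DESeq2 with GRCh38.p10; annotation release and strand setting are not given in the sources used here. The summary rows of the count tables (reads outside features, ambiguous or mapped to several places) were kept out of library sizes: such multimapping reads were 11.9% to 17.6% and ambiguous ones 1.81% to 2.46% of RNA-seq reads. TL-seq was not analysed here. Gene IDs were matched to GENCODE 29 (58084 of 58347), which gave names, positions and exon lengths. The exon length of a gene joins the exons of all its protein-coding transcripts.

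Genes passing filterByExpr (minimum count 10) were TMM scaled and tested with edgeR 4.0.16 (R 4.3.3) quasi-likelihood tests, one mean per group over all 10 RNA-seq or 17 freCLIP libraries; groups with 1 library borrow the spread of the others. Standard errors are the log2 fold change over the root of F. CPM uses the scaled library sizes. The members and lists were chosen with earlier results of these data known. Named members are those called without or with the block (at most 12 by adjusted p), the 4 highest and 4 lowest, the most abundant per kb of each complex and NDUFV2 on induction; where none was called, only the ends. Replicate numbers paired libraries: same-numbered RNA-seq libraries' deviations correlated at 0.211 to 0.652 in each of 6 pairs of groups. The fits were also run on counts simulated from their own fitted means and spread, which cannot show whether those hold for these libraries. Alternatives were the replicate block, DESeq2 1.42.0, RLE scaling, no filter, scaling on protein-coding nuclear genes, the compared groups alone and each library left out; the block with that scaling and with each library left out was added after seeing the data.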

Additional observations from a re-analysis of the deposited data

How the results depend on the processing

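Fits with the replicate block called 28 members for S34F against WT, 21 for S34F against Q157R, 1 for WT induction, 19 for S34F induction and 19 over the 3 lines, where the fit without it called 0, 0, 0, 0 and 3. The block changed no call in the other comparisons. With scaling on protein-coding nuclear genes the block called 20, 16, 0, 11 and 16, and the fit without it 1 over the 3 lines. DESeq2 called 10, 7, 0, 6 and 9, and the fit with no filter on low counts 12, 7, 1, 15 and 15. With 1 library left out, the block called 3 to 13, 3 to 19, 0 to 1, 2 to 13 and 5 to 24, and the fit without it 0 to 7 over the 3 lines. In the light freCLIP fraction DESeq2 called 1 member, and the members' median log2 fold change was 0.31 by edgeR, 0 by DESeq2 and without a filter, and 0.12 to 0.56 with 1 library left out. In the heavy fraction it was 0.57, and 0.087 with the replicate block, 0 by DESeq2 and -0.048 without a filter. The cause of these shifts was not tested.

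Of 1519 alternative values for 183 member results, 1192 kept direction and side of the threshold, 127 lost the threshold, 182 gained it and 18 reversed, in 11 results. With 1 library left out, NDUFV2 for S34F against WT ran from -0.32 to 0.71 (with the block from -0.20 to 0.61). For S34F against Q157R, NDUFA13 ran from -0.035 to 0.50 and NDUFS5 from -0.81 to 0.0079. For WT induction, NDUFA13 ran from -0.15 to 0.50 (block -0.073 to 0.44), CYC1 from -0.15 to 0.20 (block -0.13 to 0.18), NDUFS5 from -0.75 to 0.23 and COX5B with the block from -0.27 to 0.072. The difference of the S34F and WT inductions for NDUFV2 ran from -0.62 to 0.41, and was 0.075 with the replicate block and 0.19 with the block and scaling on protein-coding nuclear genes. With 2 libraries or 1 in a group, and few CLIP counts per member, differences of single members of the size of these ranges were not detectable. The cause of the reversals was not tested.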
